A study of Mus musculus with 73 samples.

Results

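Among single cells sorted from the mouse jejunum, 157 of 2347 kept cells (6.69%, exact 95% binomial interval 5.71 to 7.78) carried the transcripts of cytotoxic T lymphocytes of the kind found in the gut epithelium. A cell was counted when at least 2 of 9 lymphocyte genes were detected (*Ptprc*, *Cd3e*, *Cd3g*, *Gzma*, *Gzmb*, *Nkg7*, *Itgae*, *Il2rb* and *Ccl5*) and when it held no unique molecular identifier (UMI, the tag that counts 1 captured mRNA molecule) of the epithelial genes *Epcam* and *Vil1* or of the mesenchymal genes *Dcn* and *Pdgfra*. The cells were thus selected on the measured UMIs of these 13 genes, whose levels are given below as a description without a test. All other 2190 kept cells served as the comparison.

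The cells came from 8 male C57BL/6 mice, 3 months old and with no genetic change or treatment in the labels, named A to H here. Jejunal cells were sorted into 384-well plates by 11 gates on PDGFRa, EPCAM, CD45, CD31 or NT5E, including gates for doublets, and sequenced by MARS-seq, which counts mRNA 3′ ends. A well was kept between 400 and 8000 UMIs if it showed 250 genes or more. Laser-capture microdissected (LCM) stroma from 5 mice of the same strain, sex and age (6 sections of crypt, 8 of villus bottom, 7 of villus center and 8 of villus tip) and jejunal epithelium of 4-month-old Lgr5(GFP-ires-DTR/+) males, taken 48 h after diphtheria toxin (DT, 4 samples) or mock injection (4 samples), were used to look at the same genes in tissue. All 8 epithelium samples carry 1 allele that places the toxin receptor under *Lgr5*, so the toxin removes cells of the epithelium as well as of the stroma that express *Lgr5*.

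Intraepithelial lymphocytes sit between the enterocytes, on the epithelial side of the basement membrane. Many carry a gamma delta T cell receptor or the CD8 alpha homodimer, neither of which is common on circulating T cells, and they hold granzymes ready in their granules. The integrin encoded by *Itgae* and *Itgb7* binds E-cadherin and keeps them in the epithelium. Dissociated cells no longer show where they sat, and *Gzma*, *Nkg7*, *Il2rb* and *Ccl5* are also used by cytotoxic T and NK cells elsewhere, so the name describes the transcripts and not a position.

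The cells stood apart by plate, and their transcripts went against the label of the gate. Of the 157 cells, 155 lay on 2 plates, and both plates are labelled as PDGFRa singlets. The plate of mouse C (PDGFRa singlets, replicate 6) held 86 of them among 118 kept cells (72.9%, 63.9 to 80.7). The plate of mouse B (PDGFRa singlets Pop3, replicate 3) held 69 among 84 (82.1%, 72.3 to 89.6). In the same gates the other plate of mouse C held 0 of 125, and the other plates of mouse B held 0 of 9 and 0 of 100. Of the 47 kept cells of the 2 plates that the rule did not choose, 0 had a UMI of *Dcn* or *Pdgfra* and 3 had one of *Epcam* or *Vil1*. The sort was described as one for PDGFRa-positive cells without surface CD45 or EPCAM. *Ptprc*, which encodes CD45, was detected on these 2 plates in 16 cells of mouse B and 19 cells of mouse C. The paper reported mostly epithelial and immune cells among its single cells despite the enrichment for PDGFRa. It proposes fragments of PDGFRa-positive cells stuck to other cells as the most likely reason. The reason for the difference between label and transcripts was not tested here.

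**Figure D1:**
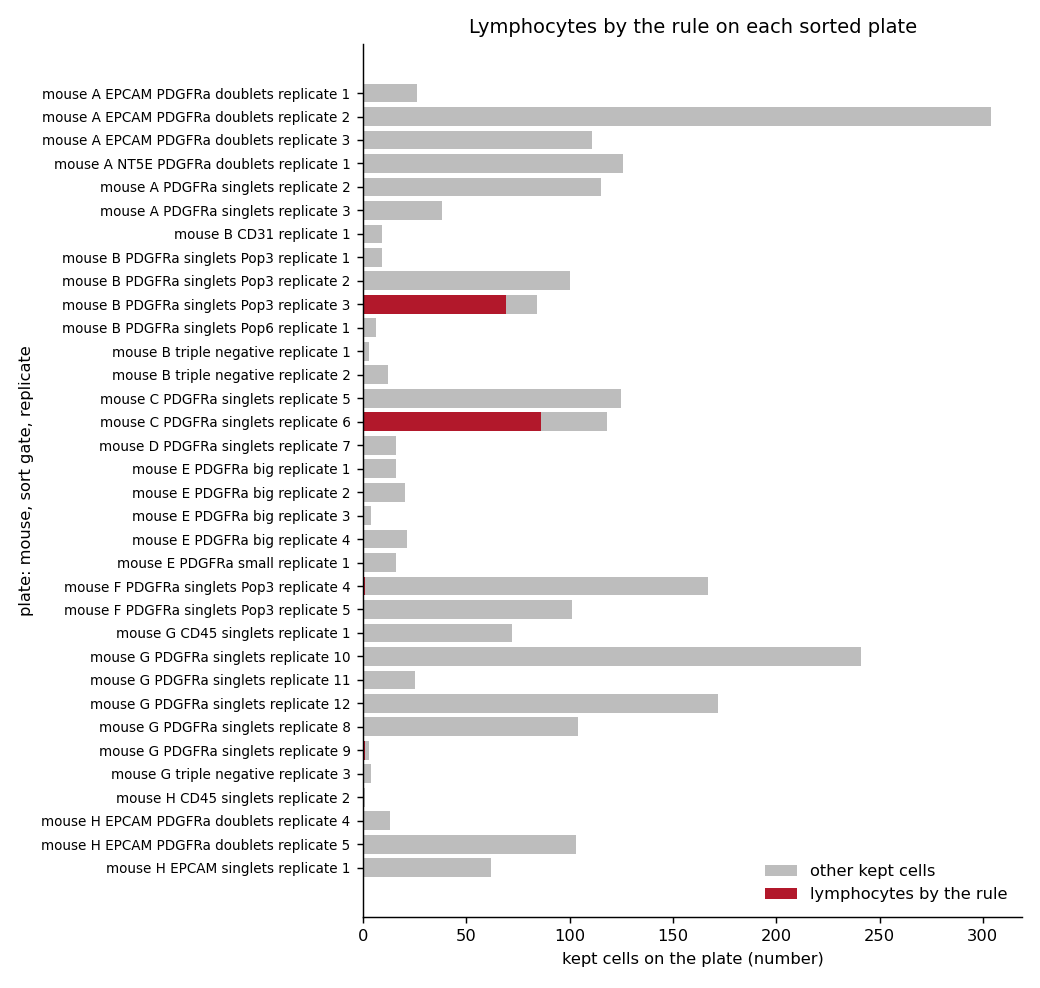
Kept cells on each of the 34 plates that had any (horizontal axis, number of cells), with the lymphocytes in red and all other kept cells in grey; plates are named by mouse, gate and replicate. The red part makes up 69 of 84 cells on 1 plate of mouse B and 86 of 118 on 1 plate of mouse C, and is 1 cell on each of 2 further plates.

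The reverse held for the cells labelled as CD45 singlets, which came almost wholly from 1 plate. Of the 73 kept cells 72 were from the plate of mouse G and 1 from that of mouse H. None of the 73 kept cells met the rule, which allows a share of up to 4.11% (3 counts of the total). *Ptprc* was detected in 1 of them, *Epcam* or *Vil1* in 65 (89.0%), and the enterocyte apolipoprotein gene *Apoa1* in 71. The CD31 plate gave 9 kept cells, all with *Epcam* or *Vil1*. No lymphocyte by the rule came from the EPCAM PDGFRa doublets (0 of 557, which allows up to 0.539%) or from the NT5E PDGFRa doublets (0 of 126, up to 2.38%). The rule leaves out any cell with *Epcam*, *Vil1*, *Dcn* or *Pdgfra*. *Epcam* or *Vil1* was detected in 457 of the 557 cells and in 99 of the 126, which thus could not count. The limits in this paragraph hold for cells that meet the rule. They do not limit lymphocyte transcripts in cells that also hold epithelial ones.

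The 2 remaining cells came from mice F and G. The cell of mouse G (PDGFRa singlets, replicate 9) had 2452 UMIs and 8 of the 9 lymphocyte genes, all but *Il2rb*. The cell of mouse F (PDGFRa singlets Pop3, replicate 4) had 897 UMIs and just 2 of them, *Cd3e* and *Ccl5*.

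Shares were taken per mouse and gate class with at least 20 kept cells, which left out mouse D (PDGFRa singlets, 0 of 16 kept cells). Cells with a gene that the rule excludes stayed among the kept cells but could not count as lymphocytes in any gate. The gates for PDGFRa singlets gave lymphocyte shares of 0% in mouse A, 34.7% in mouse B, 35.4% in mouse C, 0.373% in mouse F and 0.183% in mouse G, and all other gates gave 0% in mice A, B, E, G and H. The mean share was 14.1% ± 19.1 (SD, n = 5 mice) against 0% (n = 5), a difference of 14.1 percentage points (two-sided exact permutation test over mouse and gate class, p = 0.0476; above 0% in 4 of 5 mice). Mice A, B and G gave a value to both classes, so these values are not independent mice and the p is not a firm one. Paired within those 3 mice the difference was 11.6 percentage points (exact permutation p = 0.5, where the smallest possible p is 0.25), and with mouse D it was 11.8 (exact p = 0.0909); both were added after seeing the data. The size of the difference rested on mice B and C, since the other 3 mice lay between 0% and 0.373%. The p also rested on mice F and G, with 1 cell each, since all 4 mice above 0% lay in the PDGFRa singlet gates. It lost significance when mouse B (p = 0.143), C (0.0952), E (0.0794), F (0.0952), G (0.143) or H (0.0794) was left out in the exact test, with 3 or more lymphocyte genes required (0.167), without the exclusion genes (0.317), and with limits of 200 UMIs and 100 genes (0.307). Without the 2 plates it was 0.111 percentage points (exact p = 0.444).

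The lymphocytes were shallow. They had a median of 672 UMIs (411 to 3346) and 363 genes, against 1445.5 UMIs and 587 genes in the other kept cells, so that a gene not detected in a single lymphocyte may still be expressed. The median was 721 UMIs in mouse B and 653.5 in mouse C. Mitochondrial transcripts made up a median of 1.04% of their UMIs against 4.34% in the other kept cells, and transcripts of ribosomal protein genes 12.4% against 1.75%. All plates use 1 set of well barcodes, and 25 barcodes belonged to a kept well on both plates, 15 of them to lymphocytes on both; no kept wells had identical counts. Over all 35 plates the totals ran from 2 to 722069 UMIs per plate (median 128821). Intervals given here for shares (exact binomial) and levels (Poisson) cover counting error only. Cells of 1 plate are not replicates, so mice B and C are given side by side.

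Effector genes of the rule were the most abundant lymphocyte transcripts. *Ccl5*, a chemokine that draws T cells and other leukocytes, had a UMI in 144 of the 157 cells (91.7%, 86.3 to 95.5), and its level was 225 UMIs per 10000 in mouse B and 318 in mouse C. *Gzma*, a granule protease, was detected in 123 cells (78.3%, 71.1 to 84.5) at 237 and 164 UMIs per 10000. Only *Gm42418*, which overlaps a ribosomal RNA repeat, was more abundant in the summed cells of either mouse. *Gzmb*, the granzyme that activates caspases in target cells, was detected in 87 cells (55.4%) at 27.3 and 25.3 per 10000.

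The other genes of the rule were seen in fewer cells. *Cd3g* and *Cd3e*, signalling chains of the T cell receptor complex, were detected in 77 (49.0%) and 63 cells (40.1%). The granule membrane gene *Nkg7* had a UMI in 71 cells (45.2%), *Itgae* in 47 (29.9%), *Ptprc* in 30 (19.1%) and *Il2rb*, a receptor chain for IL-2 and IL-15, in 12 (7.64%). Among the 2190 other kept cells these 9 genes were detected in 0 (*Il2rb*) to 23 cells (*Ccl5*). *Ptprc* was at 4.89 and 3.76 UMIs per 10000 and was thus not detected in most of the lymphocytes.

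Effector transcripts overlapped within the lymphocytes chosen by the rule. *Gzma*, *Gzmb* and *Ccl5* are all genes of the rule. A cell with any of them was left out unless a further rule gene was detected, so the selection itself favours overlap. Whether they overlap more than the selection requires was not tested. *Gzma* and *Ccl5* were detected together in 120 cells, *Gzma* alone in 3 and *Ccl5* alone in 24. In these chosen cells *Gzmb* was never seen without *Ccl5* (87 cells with both), and 83 of its 87 cells also had *Gzma*. The spread between cells was wide. *Gzma* reached 823 UMIs per 10000 in the highest cell, with a median of 260 in mouse B and 122 in mouse C, and 34 cells had none. *Ccl5* had medians of 244 and 274 and a highest value of 1179.

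**Figure D2:**
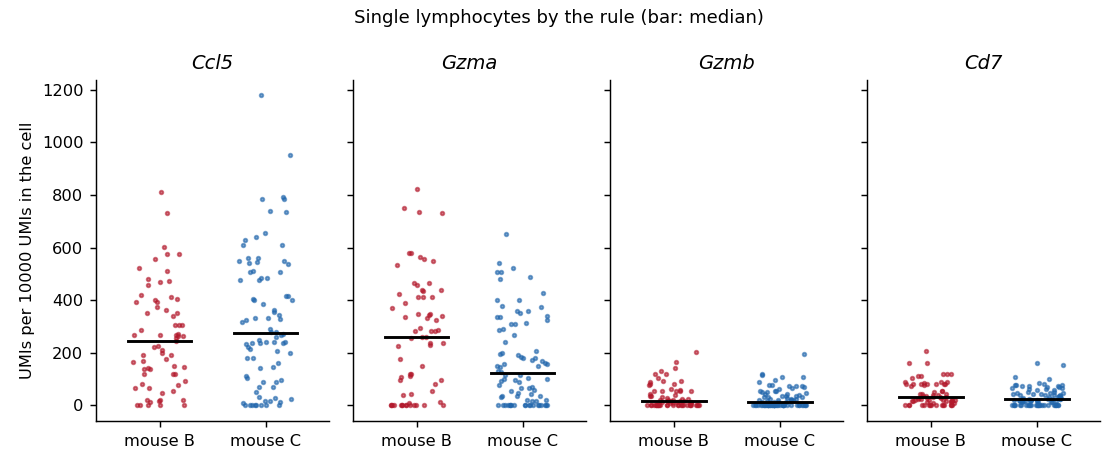
UMIs per 10000 UMIs of the cell for *Ccl5*, *Gzma*, *Gzmb* and *Cd7* in single lymphocytes of mouse B (69 cells) and mouse C (86 cells); each point is 1 cell and the bar is the median. Cells without a UMI of *Gzma* sit at 0 in both mice, beside highest cells at 823 and 651.

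The number of lymphocyte genes per cell ran from 2 to 8. In all, 23 cells had exactly 2, 31 had 3, 40 had 4, 34 had 5, 20 had 6, 7 had 7 and 2 had 8. The 23 cells just inside the threshold had a median of 554 UMIs, and 9 of them had a UMI of *Cd7*. Just outside lay 29 cells with 1 lymphocyte gene and no exclusion gene, with a median of 599 UMIs and *Cd7* in 12; 26 of them were on the same 2 plates. Both sets had a median of 7 further lymphocyte genes out of 51 counted. A further 7 kept cells had 2 or more lymphocyte genes and an exclusion gene, with a median of 10 epithelial genes and 1758 UMIs.

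Genes that the rule did not use were set against the other kept cells of the same mouse. The comparison is the one that chose the cells, so it carries no test. A gene was counted as higher or lower when it differed at least 4-fold in both mice, with counts under 3 set to 3, among 3493 genes with 20 or more UMIs over both mice. Over all of these genes, 271 (7.76%) were higher and 187 (5.35%) lower in the lymphocytes, with a median log2 ratio of 0.22. These counts depended on the processing: the higher genes numbered 88 with cells thinned to 400 UMIs, 520 with UMIs pooled over mice and 417 without mouse C, and the lower genes 85, 534 and, without mouse B, 360. Of 134 lymphocyte genes outside the rule, 68 had enough UMIs, and 55 of these were higher and 1 was lower, with a median log2 ratio of 3.53. In the 157 cells 16 of the 134 genes had no UMI, which allows a share of up to 1.91% of cells with a UMI for each (3 counts of the total) and does not limit the share of cells that express it.

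**Figure D3:**
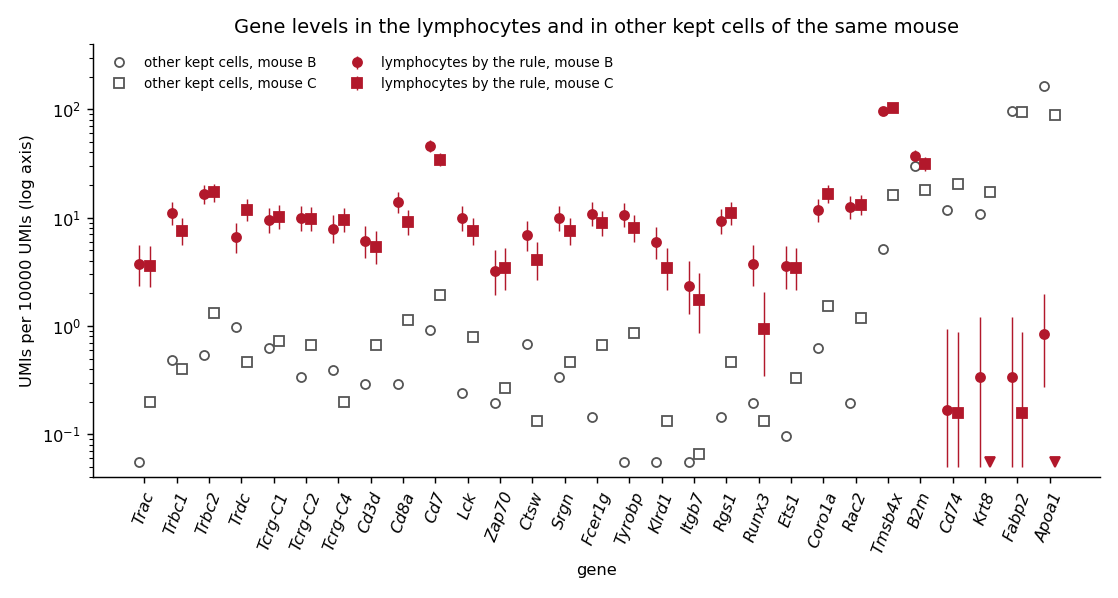
UMIs per 10000 UMIs (log axis) summed over the lymphocytes (filled red) and over the other kept cells (open) of mouse B (circles) and mouse C (squares) for 29 genes; bars on the filled points are 95% Poisson intervals and triangles mark lymphocyte levels of 0. From *Trac* to *Tmsb4x* the filled points lie above the open ones, *B2m* differs least, and the order turns for *Cd74*, *Krt8*, *Fabp2* and *Apoa1*.

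Most chains of the T cell receptor complex were detected. All 8 of its genes outside the rule that had enough UMIs were higher, while *Cd247*, the zeta chain, had a UMI in 4 cells and *Trat1* in 3, too few for the comparison. *Cd3d* reached 6.07 UMIs per 10000 in the lymphocytes of mouse B and 5.33 in mouse C, against 0.292 and 0.664 in other cells. Receptor constant genes of both lineages were found. *Trbc2* had the highest level, 16.4 and 17.1 per 10000, and *Trdc* was at 6.58 and 11.8. *Trac*, the alpha constant gene, was lower at 3.71 and 3.61. The 3 gamma constant genes *Tcrg-C1*, *Tcrg-C2* and *Tcrg-C4* lay between 7.92 and 10.2. *Trbc1* and *Trbc2*, and likewise *Tcrg-C1* and *Tcrg-C2*, are near-identical copies, so the split of UMIs between copies is uncertain.

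Single cells were sorted by which constant genes they showed. A gamma or delta constant gene alone was detected in 37 cells (23.6%, 17.2 to 31.0), an alpha or beta constant gene alone in 22 (14.0%, 9.0 to 20.4), genes of both kinds in 84 (53.5%, 45.4 to 61.5) and neither in 14 (8.92%, 4.96 to 14.5). The order was the same in both mice, with 17, 10, 37 and 5 cells in mouse B and 20, 12, 46 and 8 in mouse C. Since gamma constant genes are also transcribed in alpha beta T cells, the delta and alpha genes separate the lineages more cleanly. *Trdc* was detected in 52 cells (33.1%), *Trac* in 28 (17.8%) and both in 7 (4.46%). A beta constant gene was detected in 102 cells (65.0%) and a gamma constant gene in 110 (70.1%). Since *Trac* was at a lower level than *Trbc2*, detection of *Trdc* and *Trac* does not give the proportion of the lineages. *Trdc* was the more frequent in mouse C (33 of 86 cells against 12 with *Trac*), while in mouse B the counts were 18 and 15 of 69 with overlapping intervals (16.3 to 38.1% and 12.7 to 33.3%).

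**Figure D4:**
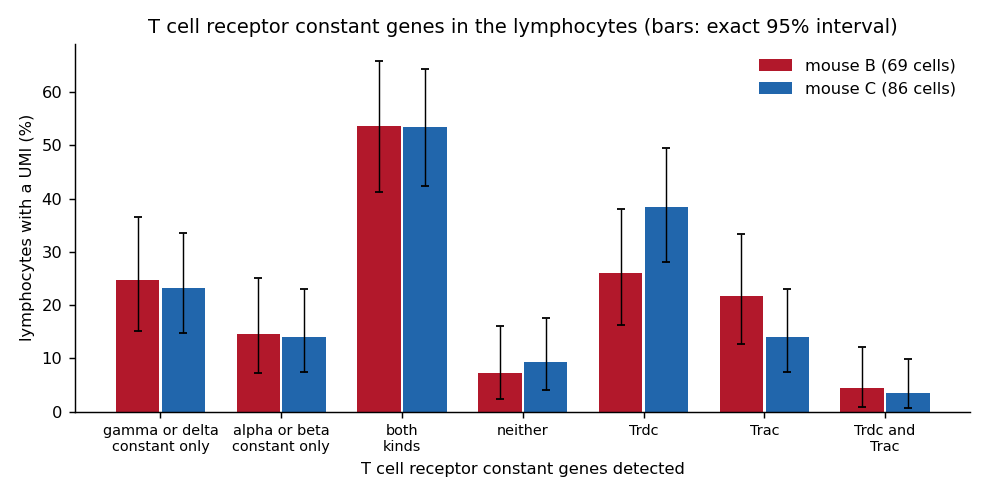
Share of lymphocytes (percent) with a UMI of the T cell receptor constant genes in mouse B (red, 69 cells) and mouse C (blue, 86 cells); bars are exact 95% binomial intervals. Cells with both kinds of constant gene form the highest bar in both mice, at 53.6% and 53.5%.

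Most cells of either class carried the effector genes. *Gzma* was detected in 43 of the 52 cells with *Trdc* (82.7%) and in 22 of the 28 with *Trac* (78.6%), and *Ccl5* in 96.2% and 92.9%. Both are genes of the rule, and over all 157 cells the shares were 78.3% and 91.7%, so these values describe the selection. *Fcer1g*, which can replace CD3 zeta in receptor complexes, was detected in 38.5% of the cells with *Trdc* and in 28.6% of those with *Trac*, with opposite orders in mouse B (7 of 18 and 2 of 15 cells) and mouse C (13 of 33 and 6 of 12). Cells with both receptor kinds were the deepest, at a median of 772.5 UMIs, and those with neither the shallowest, at 546.5.

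Of the coreceptor genes the alpha chain of CD8 was the one detected widely. *Cd8a* was detected in 63 lymphocytes (40.1%; 27.5% after thinning each cell to 400 UMIs, against 0.391% of other kept cells), at 13.8 and 9.10 UMIs per 10000. *Cd8b1*, the chain of the classical heterodimer, was detected in 3 cells (1.91%), 2 of which had *Cd8a*. *Cd7*, an early T lineage surface gene, was the most abundant lymphocyte gene outside the rule apart from the actin-binding *Tmsb4x*, with a UMI in 115 cells (73.2%, thinned 62.2%) and 45.7 and 34.2 per 10000 against 0.924 and 1.93. *Cd160*, *Cd96*, *Cd244* and *Thy1* were also higher, with *Cd160* at 6.07 and 3.76. *Cd5* and *Cd28*, a receptor regulator and a costimulator of conventional T cells, had no UMI in any lymphocyte.

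Most genes of the signalling chain below the receptor were higher, 8 of the 9 with enough UMIs. *Lck*, the kinase that starts the signal, reached 9.95 and 7.53 UMIs per 10000. The kinase *Zap70* was at 3.20 and 3.45, and the adaptor *Skap1* at 3.54 and 2.20. *Fyb* differed between the mice, at 5.06 in mouse B (20.8-fold over other cells) and 2.82 in mouse C (2.84-fold).

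Granule genes outside the rule split into detected and undetected members. *Srgn*, the proteoglycan that packs granzymes, was detected in 62 cells (39.5%), and the protease *Ctsw* in 38 (24.2%). *Prf1*, which encodes the pore-forming perforin, was detected in 1 cell, *Gzmk* in 6 and *Gzmm* in none. *Gzmc* had UMIs in 1 cell, of mouse C. Cytokines were as scarce, with *Ifng* and *Il17a* in 1 cell each and *Tnf* in none. The chemokine genes *Ccl3* and *Ccl4*, which are close paralogs, were in 13 and 16 cells, and 4 of the 5 cytokine genes outside the rule with enough UMIs were higher, including *Fgl2* (5.56 and 2.20 per 10000) and the death ligand *Tnfsf10* (2.70 and 1.57).

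Genes of tissue residence were higher in 5 of 7 cases. Genes of recirculation were near 0 in the lymphocytes and in the other kept cells alike. The 5 analysed summed to 0.169 and 0.471 UMIs per 10000 in mice B and C, against 0.146 and 0.332, and 0 had enough UMIs for the comparison. *Rgs1*, a regulator of G protein signals that marks tissue T cells, was detected in 62 cells (39.5%) at 9.27 UMIs per 10000 in mouse B, against 0.146 in its other cells, and 23.6-fold above the other cells of mouse C. *Itgb7* was at 2.36 and 1.73, and the gut lymphocyte receptor genes *Gpr55* and *Gpr18* were at 3.20 and 2.67 and at 2.53 and 0.941. *Ccr9*, the receptor for a chemokine of the small intestine, was at 2.70 in mouse B and 0.627 in mouse C, where other kept cells had 1.06. *Cd69* was detected in 3 cells. Of the recirculation genes *S1pr1* had no UMI, and *Klf2*, *Il7r* and *Lef1* were detected in 1 cell each.

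NK receptors and their adaptors formed a further group, with 5 of 5 genes higher. *Fcer1g* was at 10.8 and 8.94 UMIs per 10000, *Tyrobp* at 10.6 and 8.00, *Klrd1* (CD94) at 5.90 and 3.45 and *Hcst* at 3.54 and 2.35. *Klrc1* and *Klrc2*, which encode partners of CD94, had no UMI in any kept cell, and *Klrk1* was detected in 1 lymphocyte.

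Transcription factors were less uniform. *Ets1*, *Runx3*, *Ikzf2* and *Ikzf3* were higher, 4 of 8 with enough UMIs; *Ets1* was at 3.54 and 3.45, and *Runx3*, needed for the CD8 lineage, at 3.71 in mouse B and 0.941 in mouse C. *Maf* was lower, at 0 and 0.314 against 5.88 and 2.26. *Id2* was at 1.18 in mouse B and 5.33 in mouse C and *Tbx21*, *Zbtb16* and *Sox4* had no UMI. Of the general leukocyte genes outside the rule 14 of 18 were higher, among them the actin regulators *Coro1a* (11.8 and 16.6) and *Rac2* (12.5 and 13.2), *Laptm5* (8.26 and 6.74) and *Gimap4* (9.27 and 7.69). *Tmsb4x* stood at 95.9 and 102 per 10000 against 5.10 and 16.1.

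Lists of general cell state showed fewer such genes. Of 6 genes of MHC class I display with enough UMIs 1 was higher, *H2-Q7*, and *B2m* was at 37.1 and 31.2 UMIs per 10000 against 29.7 and 18.1. Of 3 cell cycle genes 1 was higher, the replication helicase subunit *Mcm6* (14 cells), and *Top2a* had no UMI. Of 9 genes that respond to dissociation 1 was higher, the heat shock gene *Hspa1b*, at 6.41 in mouse B and 2.35 in mouse C, while *Fos* was at 0.843 and 0.941 against 2.19 and 3.05.

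Over the 55 higher lymphocyte genes the ratio of the level in mouse B to that in mouse C had a median of 1.19 and ran from 0.358 (*Ikzf3*) to 3.94 (*Runx3*), and 50 genes lay within a factor of 2. The level was higher in mouse B for 37 genes and higher in mouse C for 18. Since each mouse contributed 1 plate, a difference between mice and a difference between plates cannot be told apart.

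Outside the fixed lists, the 15 genes that ranked highest by the mean ratio included 9 annotated processed pseudogenes, 3 of them named for the ribosomal protein genes *Rps15a* or *Rps18*. *Gm28053* led, at 9.27 and 10.5 UMIs per 10000 against 0.0486 and 0.929; its annotated span overlaps *Gimap7*, *Gimap1* and *Gimap5* on the same strand, so its UMIs are uncertain between them. The long noncoding RNA *AW112010* followed at 15.2 and 17.9 against 0.583 and 1.73, and the actin-linked genes *Cnn2*, *Sh3bgrl3* and *Tln1* were also among the 15. *Rps15a* reached 25.6 and 26.0 against 1.46 and 3.92, and its annotated pseudogenes *Rps15a-ps4* and *Rps15a-ps5* moved with it, as reads from such copies can be split between them. Of 80 ribosomal protein genes with enough UMIs, 76 were higher in both mice and 1 by 4-fold or more.

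Genes of epithelial, endothelial, myeloid and mast cells were low or not detected, while *Vim* and *Ighm* were found in more cells. Of 15 epithelial genes outside the rule with enough UMIs 12 were lower. The summed level of the 21 epithelial genes was 4.05 UMIs per 10000 in the lymphocytes of mouse B and 0.314 in mouse C, against 575 and 590 in other kept cells. This sum includes *Epcam* and *Vil1*, which the rule sets to 0 in the lymphocytes. The 19 others summed to 3.16 in all lymphocytes against 594.5 in all other kept cells. *Apoa1* was detected in 3 lymphocytes and *Fabp2*, an intestinal fatty acid carrier, in 4. *Prap1* and *Anpep*, which were among the 10 genes with the smallest ratio, had no UMI in the 157 cells, and *Spink1*, *Rbp2* and *Ckmt1* had a UMI in 1 cell each. Of 7 mesenchymal genes outside the rule just *Vim* (28 cells) and *Col1a1* (1 cell) were detected. *Vim* was higher, 1 of the 2 with enough UMIs. Of 6 endothelial genes *Pecam1* was detected in 2 cells. Of 13 myeloid genes 8 had no UMI, among them *Lyz2*, *Csf1r*, *Itgam* and the *C1q* genes, and the class II genes *Cd74*, *H2-Aa* and *H2-Ab1*, which enterocytes also express, were lower; the summed level of the 13 genes was 1.85 and 1.88 UMIs per 10000 against 19.6 and 43.4. The mast cell proteases *Mcpt1* and *Mcpt2* had no UMI. Of the B cell genes *Cd79a* and *Ms4a1* had no UMI, while *Ighm* was detected in 24 lymphocytes; the 9 genes of this list summed to 2.70 and 3.61 per 10000 against 1.36 and 2.66.

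Within the 2 plates the contrast was smaller, because the 47 kept cells that failed the rule also carried leukocyte genes. *Cd7* was detected in 18 of them (38.3%) against 114 of the 155 lymphocytes (73.5%), and *Coro1a* in 21 (44.7%) against 73 (47.1%). *Cd8a* stood at 6.66 UMIs per 10000 against 11.4, *Trbc2* at 9.08 against 16.7, and *Rgs1* at 2.72 against 10.2. *Ccr9* and *Cd8b1* went the other way, with 6.66 against 1.63 and 1.51 against 0.406. *Apoa1* was detected in 1 of the 47 cells and in 1661 of the 2143 other kept cells elsewhere, which had *Cd7* in 7 cells. Ribosomal protein genes took a median of 15.2% of UMIs in the 47 cells and 1.67% elsewhere. These 47 cells are part of the other kept cells of mouse B (15 of 154) and mouse C (32 of 157) in the comparisons above.

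The dissected stroma gave levels of the same genes by position, with samples the rule had not used. These samples are stroma and not epithelium, so they do not show where intraepithelial lymphocytes sit. Levels are TPM values rescaled after removal of highly expressed epithelial genes (ppm), and sequencing depth is unknown for these files. The summed level of 8 lymphocyte genes of the rule (without *Il2rb*, which had no row used here) was 455, 254, 538, 146 and 515 ppm in the villus tips of mice 1 to 5 and 621, 702, 1419, 1881 and 1101 ppm in the villus bottoms. All 5 tips lay below all 5 bottoms. The 5 centers ran from 531 to 1837 ppm and the 3 crypts were at 1498, 199 and 371 ppm, so both overlapped the tips. In the center of mouse 4 *Ptprc* alone gave 1642 of the 1662 ppm, with *Gzma* at 4.95 ppm and *Ccl5* at 0. In bulk tissue fewer lymphocytes and less RNA per lymphocyte cannot be told apart.

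**Figure D5:**
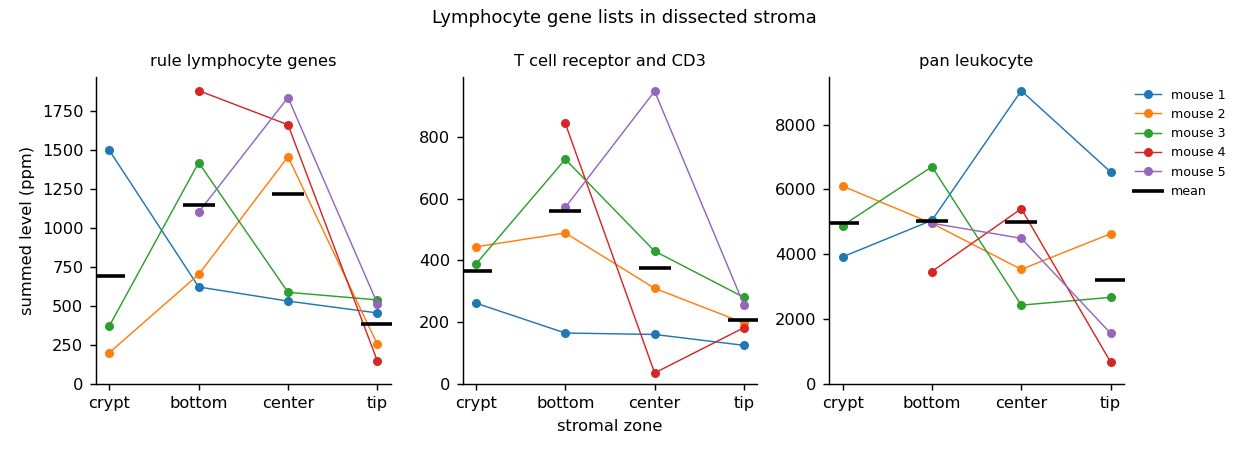
Summed level (ppm) of 3 gene lists in the stroma of 4 zones for 5 mice; points joined by a line are 1 mouse, and black bars are means over mice. The lymphocyte genes of the rule lie between 146 and 538 ppm at the tip and between 621 and 1881 ppm at the bottom, and the zones overlap for the general leukocyte genes.

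No single gene passed the test. Of 126 lymphocyte genes tested between villus tip and villus bottom, 0 had an adjusted p under 0.05 in limma (0% of all 13525 genes), 22 had an unadjusted p under 0.05 (621 of all 13525), all lower at the tip, and 98 had a negative change, with a median log2 change of -0.65 against -0.06 over all genes. *Cd3g* had a change of -2.60 (SE 0.83, adjusted p = 0.973 in limma) and *Gzma* of -2.98 (SE 1.28, adjusted p = 0.992). Between tip and crypt, 0 of 126 genes passed (0% of 13525), 10 had an unadjusted p under 0.05 in limma (439 of 13525), and the median was -0.09 against 0.04. Other immune genes differed between zones as well. The summed level of 10 B and plasma cell genes ran from 374 to 69745 ppm at the tip and from 127503 to 399347 ppm at the bottom, that of 11 myeloid genes from 48.9 to 436 and from 262 to 1254 ppm, and that of 2 epithelial genes from 6.93 to 743 and from 11.1 to 19.0 ppm. Their part in the result was not tested.

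In epithelium 48 h after DT the 9 lymphocyte genes of the rule had negative log2 changes, from -0.69 (*Ptprc*, SE 0.47, adjusted p = 0.461 in edgeR) to -0.21 (*Il2rb*, SE 0.37, adjusted p = 0.790). None of 69 lymphocyte genes passed the test at 748458 to 4210160 UMIs per sample, beside 32 of all 8986 genes (0.356%); with no filter on low counts 15 passed. At an unadjusted p under 0.05 there were 17, all lower, in edgeR (1551 of all 8986 genes) and 17 in DESeq2. Of the 69 genes 60 had a negative change and 9 a positive one in edgeR. Their median log2 change was -0.51 against 0.004 over all genes, and this shift was not tested.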

How the data were processed

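Single cells (MARS-seq) and epithelium (mcSCRB-seq) were deposited by the authors as UMI counts per gene, made with zUMIs on GRCm38 without normalization. The LCM values (SMART-seq) were deposited as TPM, made by the authors with kallisto and sleuth. Per the labels, reads were converted with bcl2fastq 2.15.0.4. Wells were assigned to samples by the title in their name; 352 wells matched no sample and were not used. Empty wells were not identified, so the background that the authors subtracted was not subtracted here. No doublet caller was run, and some gates were sorted for doublets. Gene spans are from GENCODE M21. Of 256 list genes, 22 were not analysed here in single cells.

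Levels are UMIs per 10000 UMIs summed over cells per mouse. Genes outside the lists were named by rank of the mean ratio over both mice among genes detected in at least 20% of cells (at most 15 higher and 10 lower); in tissue the rule genes and the 5 lymphocyte genes of lowest unadjusted p were followed. The rule, lists and tests were chosen with earlier results of these data known. LCM zones were compared with limma 3.58.1 on log2(ppm + 1), with trend, over 18 means per mouse and zone, for genes with a zone mean above 5 ppm, after 375 highly expressed epithelial genes were removed by the counts of the control epithelium here, where the study used another atlas; 3 list genes among these (*Gzma*, *Maf* and *Tmsb4x*) were kept. Values were divided by the sum of genes that each hold under 1%. Epithelium was compared with edgeR 4.0.16 (quasi-likelihood, batch as a term) for genes above 1e-05 of UMIs in 2 samples, and with DESeq2 1.42.0. Tests use Benjamini-Hochberg adjustment over all genes. Whether LCM samples are paired follows from the mouse in the labels; same-numbered epithelium samples deviated together (r = 0.617, 0.416, 0.648 and 0.580), so replicate blocks were fitted as alternatives. Each epithelium sample came from 1 mouse per the methods. The scripts were tested on simulated data.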

Additional observations from a re-analysis of the deposited data

Results flagged for a closer look

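A search of the wells below the depth limit found 95 wells with at least 200 but under 400 UMIs and at least 100 genes that met the lymphocyte rule, 94 of them on the 2 plates that hold nearly all lymphocytes; they were left out of every comparison. Dixon's test was used to search 75 groups of 4 or 5 values for a value that stands apart. A group was a gene in an LCM villus zone, a gene in DT or control epithelium, or the lymphocyte share in a gate class. Over all 75 groups 10 outliers were found where the nominal rate of the test gives 3.75, and all 10 lay in the LCM stroma. That rate assumes normally distributed values, while some of these LCM groups had a median of 0 ppm. The number beyond 3.75 is thus no measure of an excess over chance. At the villus center these were *Ccl4* in mouse 2 (71.8 ppm), *Tcrg-C1* in mouse 2 (80.2 ppm), *Klf2* in mouse 3 (36.6 ppm), *Ptprc* in mouse 4 (1642 ppm), *Itgae* in mouse 5 (76.7 ppm) and *Srgn* in mouse 5 (997 ppm). At the villus bottom they were *Cd3g* in mouse 3 (115 ppm) and *Nkg7* in mouse 4 (504 ppm), and at the villus tip *S1pr1* in mouse 3 (3.76 ppm) and *Nkg7* in mouse 5 (77.7 ppm). All 10 lay above the other mice of their zone, and the cause was not tested.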

How the results depend on the processing

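The number of lymphocytes rose to 272 with limits of 200 UMIs and 100 genes, was 134 to 186 with 3 or 1 lymphocyte genes required or without the exclusion genes, and ran from 71 to 157 when 1 mouse was left out (71 without mouse C, 88 without mouse B). Without the 2 plates, an alternative chosen after seeing the data, 2 remained. The gate difference of 14.1 percentage points became 11.9 (exact p = 0.307) with the lower limits, 12.1 (0.167) with 3 genes, 13.8 (0.317) without the exclusion genes, 8.81 to 17.7 (0.0286 to 0.143) without 1 mouse and, with alternatives chosen after seeing the data, 0.111 (0.444) without the 2 plates, 11.8 (0.0909) with no minimum of kept cells per mouse and 11.6 (0.5) paired by mouse as a replicate block over 3 mice, where no p can be under 0.25. Genes higher at least 4-fold numbered 520 with UMIs pooled over mice, 88 with cells thinned to 400 UMIs, 181 to 417 in a single mouse (417 without mouse C) and 431 against other kept cells without the 2 plates (chosen after seeing the data); genes lower numbered 534, 85 and 253 to 360 (360 without mouse B) in the first 3 of these.

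With no filter on low counts 15 of the lymphocyte genes passed in the DT epithelium, all others of its alternatives giving 0; the cause was not tested. With the mouse as replicate block the tip to crypt change of *Ptprc* turned from 0.39 to -0.39 (limma adjusted p = 1.00), and the blocks in LCM and epithelium changed no call. Changes that reversed when 1 mouse or sample was left out were *Gzma* tip to crypt (-2.45 to 0.54, positive without mouse 4), *Cd3e* tip to bottom (-0.74 to 0.22, positive without mouse 1 or 5), and in DT epithelium *Il2rb* (-0.43 to 0.19, without control 3) and *Ccl5* (-0.65 to 0.13, without control 1). No call in LCM changed under any alternative. At a median of 672 UMIs per lymphocyte, a gene not detected in a cell may still be expressed there.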

Other observations

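Some immunoglobulin transcripts were found on the 2 lymphocyte plates. *Ighm*, the heavy chain constant gene of IgM, had a UMI in 36 kept cells, all on these plates: 24 lymphocytes and 12 of the 47 other kept cells, against 0 of 2143 elsewhere, where *Igha*, the constant gene of IgA, was detected in 6. Among the 47 cells *Cd79a*, a B cell receptor chain, was detected in 4, the B cell surface gene *Ms4a1* in 5, and *Cd74*, *H2-Aa* and *H2-Ab1* in 14, 14 and 12, at 30.9, 14.5 and 13.9 UMIs per 10000. None of the lymphocytes by the rule had a UMI of *Cd79a* or *Ms4a1*, and 2 had *Cd74*. These genes were looked at after the plates had been seen.

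*Ctla4*, an inhibitory T cell receptor gene outside the lists and chosen after its values were seen, had a UMI in 100 lymphocytes (63.7%), but also in 565 of the 1623 kept cells with *Epcam* or *Vil1* (34.8%) and in 179 of the 312 with *Dcn* or *Pdgfra* (57.4%). Its annotated span (GRCm38 chromosome 1, 60887000 to 60915832, plus strand) holds the processed pseudogene *Rpl18-ps1* (60900898 to 60901422) on the same strand, inside the gene. Which of these annotations the UMIs came from was not tested.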
